A study of Homo sapiens with 12 samples.

Results

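The 10 transcription factors MYB, MYC, MYCN, GATA2, GFI1, IRF8, LMO2, TAL1, IKZF1 and BCL6 were followed across the 12 mRNA-seq samples of NB4 and Kasumi-1 cells. They were chosen by gene symbol, as regulators of hematopoietic progenitors and of myeloid lineage choice, and all 10 were found among the 20003 genes of the files. NB4 is a human cell line of acute promyelocytic leukemia that carries the PML-RARA fusion gene, and Kasumi-1 is a human AML cell line that carries the RUNX1-RUNX1T1 fusion gene. Each line gave 3 control samples, which received DMSO, and 3 samples that received 1 μM OGP46, a kaurene diterpenoid made from oridonin. The labels give 48 h of incubation for all 4 groups, while one passage of the study's text gives a longer time for the sequenced cells. Each line is a single cultured line, and the labels do not say whether the 3 samples of a group came from separate cultures. A figure legend of the study speaks of 3 independent experiments, without saying how these relate to the samples. The p-values therefore measure the spread between these samples only. Expression was given as FPKM, that is, fragments scaled by transcript length and by the mapped fragments of the sample.

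In hematopoiesis, these factors form a network that holds progenitors in a dividing state or moves them toward one lineage. MYB and MYC keep progenitors cycling, TAL1, LMO2 and GATA2 bind DNA in one complex in stem and erythroid cells, and GFI1 and IRF8 act on the choice between granulocytes and monocytes. IKZF1 and BCL6 are zinc finger proteins best known from lymphoid cells.

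The lines were told apart by their marker genes. The summed level of 8 Kasumi-1 markers, among them RUNX1T1, TRH, CD34 and KIT, lay between 264 and 300.1 FPKM in the Kasumi-1 controls and between 0.673 and 3.65 FPKM in the NB4 controls, and CAV1 of that list was at 0 in all 12 samples. The 7 NB4 markers had sums of 158 to 212 FPKM in the NB4 controls and of 79.7 to 98.7 FPKM in the Kasumi-1 controls, and in the controls HGF and FGF13 of that list were higher in Kasumi-1. The control samples NB4 control 3 and Kasumi-1 control 2 carried some signal of the other line. In NB4 control 3, KIT, CD34, TRH and RUNX1T1 together reached 1.04% of their level in the Kasumi-1 controls, against 0.0573% to 0.265% in the other NB4 samples. In Kasumi-1 control 2, LGALS1, VIM, MMP9 and S100A10, chosen after their values were seen, reached 1.53% of their level in the NB4 controls, against 0.182% to 0.333% in the other Kasumi-1 samples. The sum of all FPKM ranged from 248207 to 310262 per sample, and between 9339 and 9746 genes reached 1 FPKM. The depth is unknown, so no counting error can be given.

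Sequences at the start sites are shown for the 3 factors with the largest difference between the lines, IRF8, TAL1 and MYCN, and for BCL6, which had the largest change with OGP46. They were taken from RefSeq on GRCh38.p14, whose table of 300-base windows around start sites holds 8 of the 10 factors. All motifs were searched on both strands, and shares are of the 250 bases before each of 35116 start sites. The 11 motifs searched were GATAA (GATA factors), TTCNNNGAA (BCL6 and STAT), AAATCA (GFI1), TGGGAA (Ikaros), CACGTG (MYC), CAGCTG (TAL1 with E proteins), GAGGAA (PU.1), TGTGGT (RUNX), AACNGC (MYB), TGACNNNGC (antioxidant response) and GGCGCGAAA (E2F). TAL1 lies on chromosome 1 from 47216290 to 47232335, on the minus strand. It has 2 listed start sites. The window chr1:47232336-47232585, before the first of them, holds 2 matches to GATAA, the core that GATA factors such as GATA2 bind. Capitals mark these, read here as TTATC of the opposite strand. The window of the other start site holds matches to TGTGGT and AACNGC and none to GATAA. At least 1 such match is found in 20.4% of windows.
TAL1: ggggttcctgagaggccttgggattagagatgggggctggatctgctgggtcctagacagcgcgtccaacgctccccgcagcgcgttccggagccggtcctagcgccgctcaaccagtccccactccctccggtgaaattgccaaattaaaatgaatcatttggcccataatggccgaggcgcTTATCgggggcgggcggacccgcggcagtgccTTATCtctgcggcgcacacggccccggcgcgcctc
IRF8 lies on chromosome 16 from 85899162 to 85922609, on the plus strand, and 2 start sites are listed inside these bounds. In the window chr16:85902580-85902829, before the first of them, capitals mark matches to GATAA, to AACNGC of MYB (as GCTGTT), to TGTGGT of RUNX factors and to TGGGAA of Ikaros (as TTCCCA), in this order, and none of them overlap. AACNGC is found in 30.5%, TGTGGT in 11% and TGGGAA in 20.8% of windows.
IRF8: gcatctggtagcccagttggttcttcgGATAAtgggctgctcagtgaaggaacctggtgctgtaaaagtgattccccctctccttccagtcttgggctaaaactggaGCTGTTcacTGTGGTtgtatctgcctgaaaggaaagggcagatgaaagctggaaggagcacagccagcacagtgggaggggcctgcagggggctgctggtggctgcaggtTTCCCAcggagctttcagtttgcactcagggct
MYCN lies on chromosome 2 from 15940550 to 15947004, on the plus strand. In the window chr2:15940300-15940549, capitals mark 1 match to GGCGCGAAA, an E2F motif found in 0.231% of windows, followed by 2 matches to AAATCA of GFI1 (the first as TGATTT), found at least once in 11.6% of windows. Single matches to TGGGAA and GAGGAA in this window are left in lower case.
MYCN: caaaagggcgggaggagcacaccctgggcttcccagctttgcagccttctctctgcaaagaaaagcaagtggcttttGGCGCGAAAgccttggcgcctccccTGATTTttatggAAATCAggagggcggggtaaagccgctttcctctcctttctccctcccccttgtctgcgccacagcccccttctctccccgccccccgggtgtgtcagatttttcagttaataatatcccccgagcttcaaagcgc
BCL6 lies on chromosome 3 from 187721377 to 187745468, on the minus strand. The first of its 2 listed start sites is surrounded by TTCNNNGAA, the core that BCL6 itself and STAT proteins bind. The window of the other start site holds no match to it. The 300 bases around the first start site hold 4 matches, at positions -28, -5, 11 and 37 from it. Only 7 of the 35116 windows (0.0199%) hold as many. The stretch chr3:187745448-187745477 shows in capitals the match that spans the start site, from -5, and the next one, from 11.
BCL6: ttgaTTCTTAGAActggggTTCTTAGAAgt
These matches are descriptions of the sequence, and binding was not measured.

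The factors spanned a wide range of levels. In the NB4 controls the order of the mean levels in FPKM, which are corrected for transcript length, was MYC, MYB, IRF8, GFI1, IKZF1, LMO2, GATA2, BCL6, TAL1 and MYCN. In the Kasumi-1 controls it was MYC, MYB, GFI1, LMO2, GATA2, IKZF1, TAL1, MYCN, IRF8 and BCL6. The 3 values of a factor overlapped with those of its neighbour in the order for IRF8 and GFI1, IKZF1 and LMO2, and BCL6 and TAL1 in NB4, and for MYCN and IRF8 in Kasumi-1. All other neighbours were separate.

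**Figure D1:**
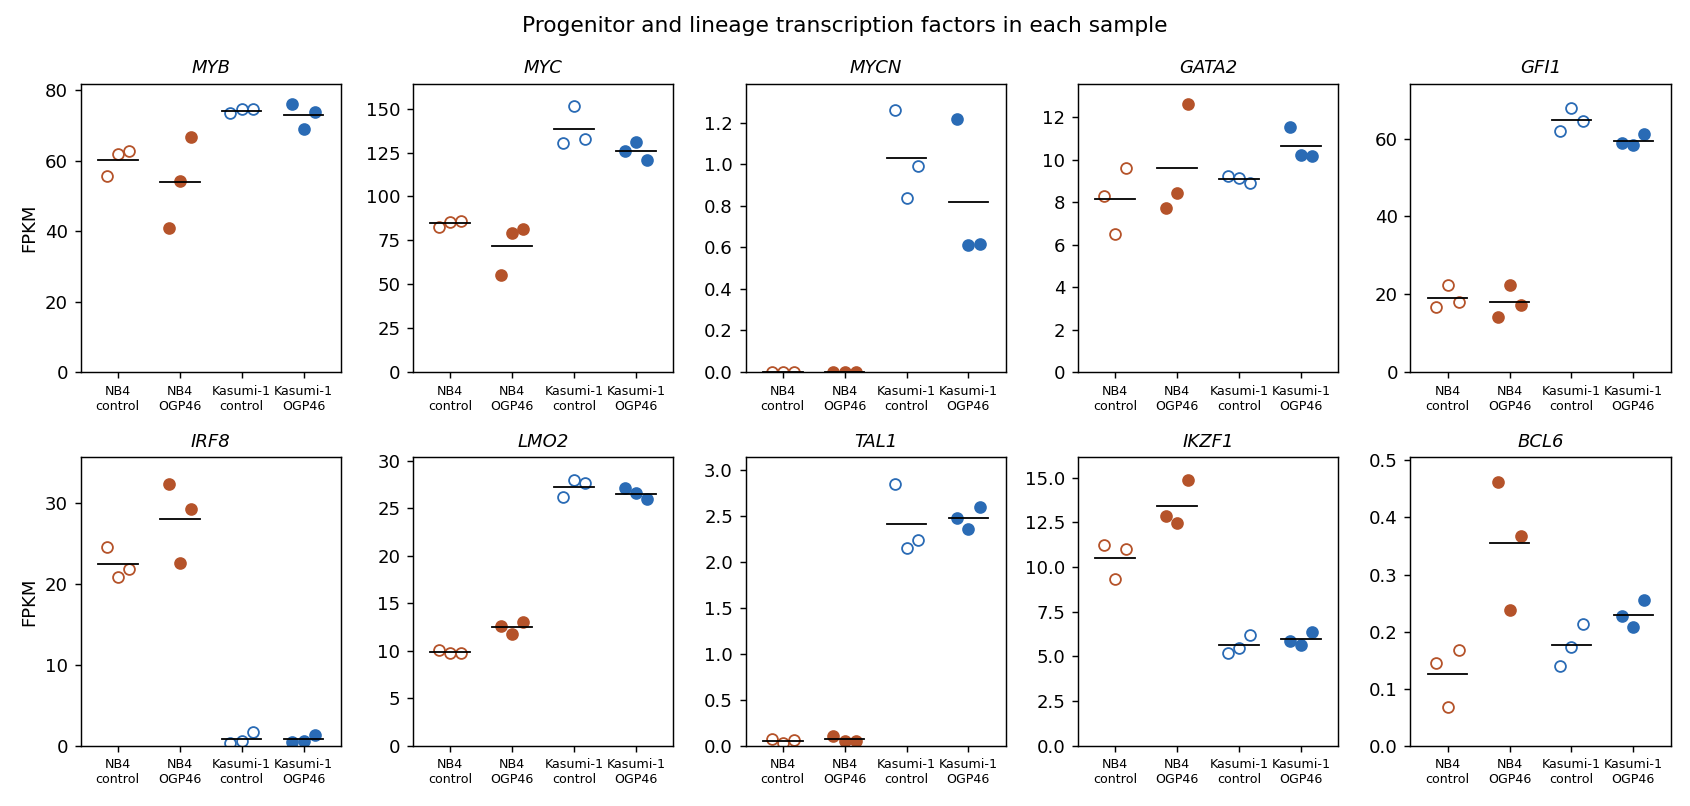
FPKM of each of the 10 factors (linear vertical axes starting at 0) in the 12 samples, with open circles for control, filled circles for OGP46, replicates 1 to 3 from left to right and a black line at the mean of each group of 3. The lines stand apart for MYC, GFI1, LMO2, TAL1, MYCN, IRF8 and IKZF1, and by a small gap for MYB. BCL6, LMO2 and IKZF1 in NB4 lie above their controls with OGP46.

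Kasumi-1 and NB4 controls were compared first. Of the 10 factors, 5 were higher in Kasumi-1 (MYC, MYCN, GFI1, LMO2 and TAL1), 2 were lower (IRF8 and IKZF1), and MYB, GATA2 and BCL6 did not pass. To pass, a gene needed a fold of 0.58 or more on the log2 scale in either direction and an adjusted p under 0.05 by limma on log2(FPKM + 0.1), with adjustment over all genes tested. By that rule 52.4% of the 12302 genes tested differed between the lines, 29.7% higher and 22.7% lower in Kasumi-1, so the lines differ widely and 7 of 10 is to be read against that share. Of all calls, 3659 were higher and 2790 lower with the values as deposited, and 2994 were higher and 3595 lower with TPM scaling, or 3162 and 3330 with median centring. The values of the 2 groups did not overlap for 8 of the 10 factors, 6 higher and 2 lower in Kasumi-1, against 77.7% of all genes. Lower RNA of a gene per cell and fewer cells with that RNA cannot be told apart in these bulk samples.

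Of the complex of TAL1, LMO2 and GATA2, the first pair was higher in Kasumi-1 and GATA2 was not past the threshold. TAL1, a basic helix-loop-helix factor of stem cells and erythroid cells, was at 2.85, 2.15 and 2.24 FPKM in the Kasumi-1 controls and at 0.0704, 0.0323 and 0.0675 FPKM in the NB4 controls. The Kasumi-1 mean was 42.5 times the NB4 mean, and the log2 fold change was 4.0 (SE 0.18, adjusted p = 1.77e-07). All 6 NB4 samples were at or below 0.109 FPKM for TAL1. LMO2, the LIM protein that bridges TAL1 and GATA factors, was at 26.1, 27.98 and 27.6 FPKM in the Kasumi-1 controls and at 10.1, 9.80 and 9.72 FPKM in the NB4 controls, with a log2 fold change of 1.45 (SE 0.07, adjusted p = 1.89e-07). The 3 values within each line differed little, and the groups were far apart. GATA2, the GATA factor of stem and progenitor cells, was at 9.22, 9.12 and 8.89 FPKM in Kasumi-1 and at 8.30, 6.49 and 9.61 FPKM in NB4. These values overlapped, and the log2 fold change of GATA2 was 0.17 (SE 0.13, adjusted p = 0.257), or -0.03 with TPM scaling.

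Of the other proteins of this complex and its partners, 8 were past the threshold as higher and 2 as lower in Kasumi-1 among 10 tested. Among all genes 29.7% were called higher and 22.7% lower. LYL1, the closest relative of TAL1, was at 42.0 ± 2.94 FPKM (SD, n = 3) in Kasumi-1 and at 12.0 ± 0.968 FPKM (SD, n = 3) in NB4. ERG, an ETS factor of stem cells, was at 11.5 ± 0.244 and 0.117 ± 0.062 FPKM (SD, n = 3 each). GATA1, the erythroid relative of GATA2, was one of the 2 that were lower, listed at 0 in all 6 Kasumi-1 samples and at 0.397 ± 0.2 FPKM (SD, n = 3) in the NB4 controls. The other was CBFA2T3, a corepressor of the RUNX1T1 family, with a log2 fold change of -1.98 (SE 0.09, adjusted p = 1.95e-07).

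GFI1 and IRF8, factors of the granulocyte and the monocyte lineage, differed in opposite directions. GFI1, a zinc finger repressor needed for neutrophils, was at 62.0, 67.9 and 64.4 FPKM in the Kasumi-1 controls and at 16.7, 22.4 and 17.9 FPKM in the NB4 controls. The groups did not overlap, and the log2 fold change was 1.77 (SE 0.11, adjusted p = 8.19e-07). IRF8, an interferon regulatory factor that drives monocytes and dendritic cells, was at 0.389, 0.649 and 1.65 FPKM in the Kasumi-1 controls and at 24.6, 20.8 and 21.8 FPKM in the NB4 controls. The NB4 mean was 25.0 times the Kasumi-1 mean, and the log2 fold change of Kasumi-1 against NB4 was -4.70 (SE 0.38, adjusted p = 5.06e-06). IRF8 was highest in replicate 3 of Kasumi-1 with and without OGP46, at 1.35 FPKM with it. Kasumi-1 control 2, the sample with NB4 signal, was at 0.649 FPKM, and the part of that signal in its value was not tested. Without both control samples that carried signal of the other line, the log2 fold change of IRF8 was -4.62 (SE 0.58, adjusted p = 0.00147).

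**Figure D2:**
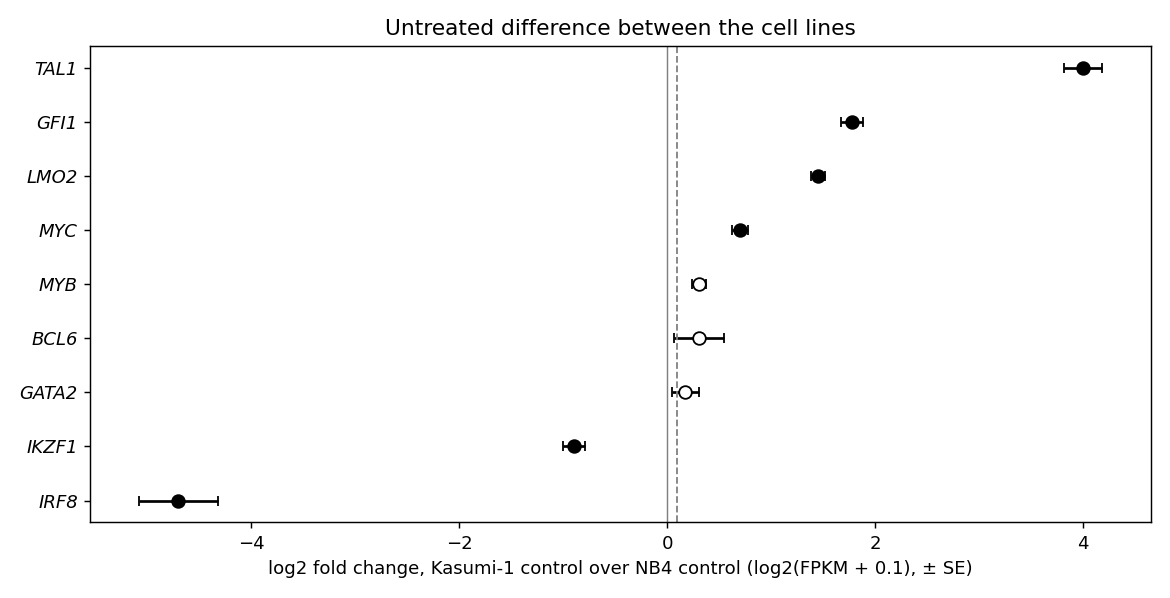
Log2 fold change of each factor in Kasumi-1 over NB4 controls (horizontal axis, log2(FPKM + 0.1), bars ± SE, n = 3 each), with filled points for those that passed the threshold and a dashed line at the median of all genes tested. The factors run from IRF8 at -4.70 to TAL1 at 4.0, with MYB, GATA2 and BCL6 open, and MYCN is left out because it was listed at 0 in NB4.

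MYC and MYB, which keep progenitors dividing, were the most abundant factors in both lines. MYC was at 130.4, 151.6 and 132.5 FPKM in the Kasumi-1 controls and at 82.4, 85.6 and 85.9 FPKM in the NB4 controls. The difference passed the threshold (log2 fold change 0.70, SE 0.08, adjusted p = 3.24e-05), but the fold fell below it with TPM scaling, at 0.50, and with median centring, at 0.57. MYB was at 73.4, 74.7 and 74.5 FPKM in Kasumi-1 and at 55.7, 61.9 and 62.8 FPKM in NB4, a log2 fold change of 0.30 (SE 0.07, adjusted p = 0.00314) that was under the fold threshold. MYCN, the relative of MYC known from neuroblastoma, was at 1.26, 0.835 and 0.993 FPKM in the Kasumi-1 controls and was listed at 0 in all 6 NB4 samples, so no fold is given. Its antisense gene MYCNOS was listed at 0 in 11 of the 12 samples and at 0.0387 FPKM in Kasumi-1 with OGP46 replicate 3. The third gene of the family, MYCL, was at or below 0.389 FPKM in all 12 samples.

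IKZF1, which codes for Ikaros, was at 11.2, 9.35 and 10.98 FPKM in the NB4 controls and at 5.16, 5.47 and 6.22 FPKM in the Kasumi-1 controls. The NB4 mean was 1.87 times higher, and the log2 fold change of Kasumi-1 against NB4 was -0.89 (SE 0.11, adjusted p = 6.13e-05). Its relatives differed in other ways. IKZF2 (Helios) was at 0.971 ± 0.183 FPKM (SD, n = 3) in Kasumi-1 and 0.0612 ± 0.0174 FPKM (SD, n = 3) in NB4, while IKZF3 (Aiolos) was at 0 in the Kasumi-1 controls and at 0.201 ± 0.0219 FPKM (SD, n = 3) in NB4. BCL6, a repressor of germinal center B cells that is also expressed in monocytes, was low in both lines, at 0.145, 0.0671 and 0.167 FPKM in NB4 and at 0.140, 0.174 and 0.214 FPKM in Kasumi-1. Its values overlapped between the lines (log2 fold change 0.30, SE 0.24, adjusted p = 0.274).

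The effect of OGP46 was then compared with control within NB4 cells. None of the 8 factors tested passed the threshold by limma without pairing, while 1.56% of the 11750 genes tested did. At an unadjusted p below 0.05, 3 of the 8 (BCL6, LMO2 and IKZF1) were past it, against 29.1% of all genes. TAL1 and MYCN were below the minimum mean of 0.1 FPKM in NB4 and were not tested. The study names no pairing. For each control, the OGP46 sample of the same number in the labels was the most alike in its deviations from the group mean. With this number as a block in the fit BCL6 passed, 1 of 8, while 6.21% of all genes did (5.06% of all genes higher with OGP46). The median log2 fold change over all genes was 0.18 in NB4, so most genes lay somewhat higher with OGP46 in the deposited values, and the median over the 8 factors was 0.26. The values of the 2 groups did not overlap for 4 of the 8, 3 of them higher with OGP46 (LMO2, IKZF1 and BCL6) and 1 lower (MYC). Among all genes the groups did not overlap for 34.7%, with 32.7% higher and 1.91% lower.

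BCL6 had the largest change of the 8. It was at 0.145, 0.0671 and 0.167 FPKM in the controls and at 0.461, 0.238 and 0.368 FPKM with OGP46. Every OGP46 sample was above every control, and the mean was 2.81 times as high, though under 0.5 FPKM throughout. The log2 fold change was 1.01 (SE 0.29, adjusted p = 0.0846), with an adjusted p of 0.0146 with the replicate block. The block with median centring gave 0.79 (adjusted p = 0.0686), and over all alternatives the fold lay between 0.27 (pseudocount of 1) and 1.46 (pseudocount of 0.01) and the adjusted p between 0.0146 and 0.26. Without pair 3, whose control carried Kasumi-1 signal, the blocked log2 fold change was 1.11 (adjusted p = 0.0193).

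LMO2 and IKZF1 lay above their controls in all 3 pairs. LMO2 was at 10.1, 9.80 and 9.72 FPKM in the controls and at 12.6, 11.7 and 13.1 FPKM with OGP46, with a log2 fold change of 0.33 (SE 0.08, adjusted p = 0.0683). IKZF1 was at 11.2, 9.35 and 10.98 FPKM in the controls and at 12.8, 12.5 and 14.9 FPKM with OGP46, with a log2 fold change of 0.35 (SE 0.11, adjusted p = 0.0953). With the block their adjusted p was 0.0227 and 0.0217, but both folds were under 0.58. After median centring, which removes the shift shared by all genes, the changes were 0.11 for LMO2 and 0.13 for IKZF1.

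IRF8 and GFI1 did not pass in NB4 with or without the block. IRF8 was at 24.6, 20.8 and 21.8 FPKM in the controls and at 32.3, 22.5 and 29.2 FPKM with OGP46. It was higher in all 3 pairs, by log2 ratios of 0.39, 0.11 and 0.42, but the groups overlapped and the fold did not reach the threshold (log2 fold change 0.31, SE 0.14, adjusted p = 0.176, or 0.0319 with the block). GFI1 was at 16.7, 22.4 and 17.9 FPKM in the controls and at 14.2, 22.3 and 17.2 FPKM with OGP46 (log2 fold change -0.10, SE 0.17, adjusted p = 0.719). In NB4 the highest value of GFI1 was in replicate 2 of both groups.

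MYC and MYB were lowest in 1 sample of NB4 with OGP46. MYC was at 82.4, 85.6 and 85.9 FPKM in the controls and at 55.0, 79.2 and 81.5 FPKM with OGP46, with a log2 fold change of -0.26 (SE 0.14, adjusted p = 0.255). All 3 OGP46 samples were below all 3 controls, but without OGP46 replicate 1 the change of MYC was -0.08. With median centring it was -0.48, with an adjusted p of 0.192 by limma, or 0.0103 with the block, still under the fold threshold. MYB was at 55.7, 61.9 and 62.8 FPKM in the controls and at 40.8, 54.3 and 66.6 FPKM with OGP46, with a log2 fold change of -0.18 (SE 0.16, adjusted p = 0.452). The MYB pairs differed in direction, with log2 ratios of -0.45, -0.19 and 0.09. With median centring the change of MYB was -0.40, with an adjusted p of 0.26 by limma, or 0.0125 with the block. GATA2 was at 8.30, 6.49 and 9.61 FPKM in the controls and at 7.72, 8.42 and 12.6 FPKM with OGP46 (log2 fold change 0.22, SE 0.20, adjusted p = 0.482), and TAL1 stayed at or below 0.109 FPKM.

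**Figure D3:**
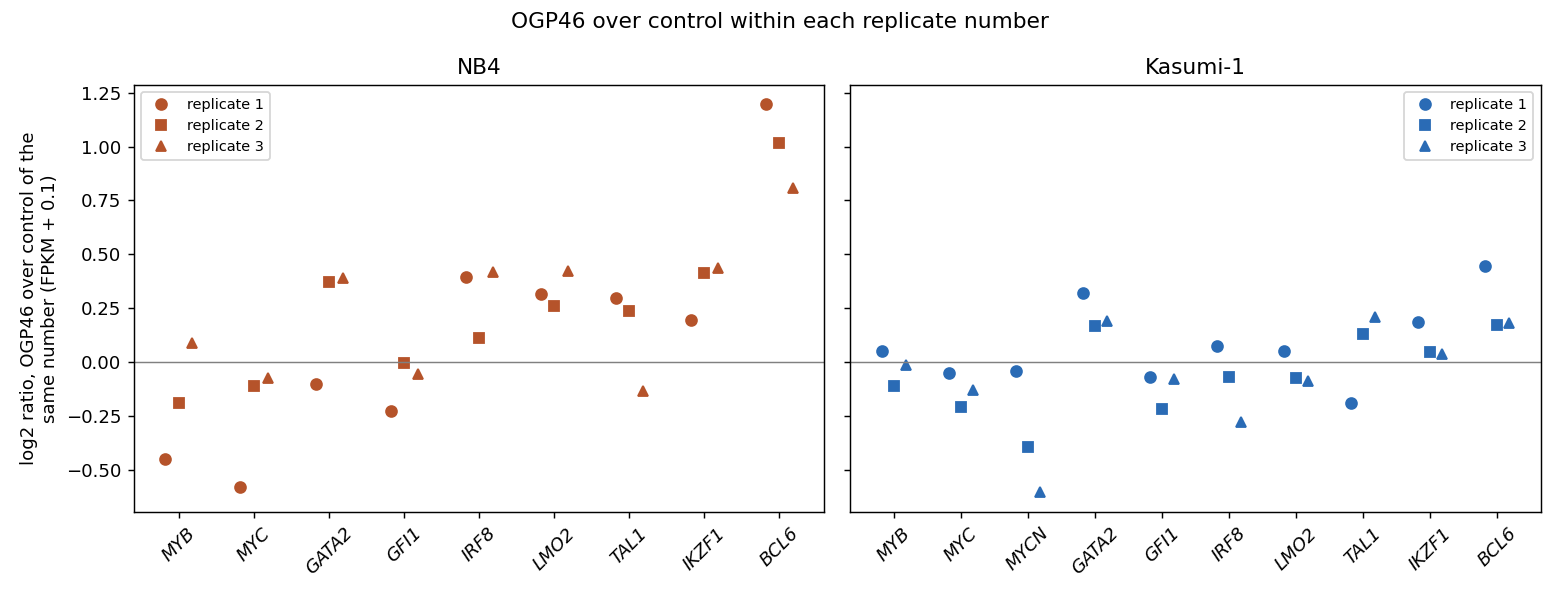
Log2 ratio of OGP46 over control within each replicate number (FPKM + 0.1), with circles for replicate 1, squares for 2 and triangles for 3, in NB4 (left) and Kasumi-1 (right). All 3 pairs lie above 0 for BCL6, LMO2, IKZF1 and IRF8 in NB4, and BCL6 in NB4 reaches 0.81 to 1.2. MYCN is absent on the left because it was listed at 0 in all NB4 samples.

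In Kasumi-1 cells none of the 10 factors passed the threshold, with or without the block, while 0.0338% of the 11835 genes tested passed without it and 0.617% with it. All calls were 2 higher and 2 lower with the deposited values, 13 higher and 5 lower with TPM scaling, and 4 higher and 14 lower with median centring. At an unadjusted p below 0.05, GATA2 was the 1 of the 10 past it in the fit without pairing, against 15.6% of all genes. The groups did not overlap for GATA2, which was higher with OGP46, and for GFI1, which was lower, that is for 2 of 10 against 22.6% of all genes (17.4% higher and 5.23% lower). GATA2 was at 9.22, 9.12 and 8.89 FPKM in the controls and at 11.5, 10.2 and 10.2 FPKM with OGP46, with a log2 fold change of 0.22 (SE 0.07, adjusted p = 0.184). GFI1 was at 62.0, 67.9 and 64.4 FPKM in the controls and at 59.0, 58.4 and 61.1 FPKM with OGP46, with a log2 fold change of -0.12 (SE 0.06, adjusted p = 0.343).

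The other factors of Kasumi-1 overlapped between control and OGP46. MYC was at 130.4, 151.6 and 132.5 FPKM and then at 125.8, 130.9 and 120.9 FPKM, lower in all 3 pairs (log2 fold change -0.13, SE 0.07, adjusted p = 0.404). MYCN was at 1.26, 0.835 and 0.993 FPKM and then at 1.22, 0.611 and 0.618 FPKM, also lower in all 3 pairs (log2 fold change -0.35, SE 0.25, adjusted p = 0.518). MYB stayed between 69.0 and 76.2 FPKM, LMO2 between 26.0 and 27.98 FPKM and TAL1 between 2.15 and 2.85 FPKM over the 6 samples. BCL6 was at 0.227, 0.208 and 0.255 FPKM with OGP46 and was higher than its control in all 3 pairs (log2 fold change 0.26, SE 0.22, adjusted p = 0.59). IKZF1 was at 5.88, 5.65 and 6.38 FPKM with OGP46, with a log2 fold change of 0.09 (SE 0.09). IRF8 was at 0.414, 0.614 and 1.35 FPKM with OGP46, and its replicates spread more within a group than the groups differed (log2 fold change -0.09, SE 0.47).

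The effect of OGP46 was also compared between the lines, as the effect in Kasumi-1 minus that in NB4 in one limma fit of the 12 samples. None of the 10 factors differed at an adjusted p below 0.05, nor did any gene (0% of 12309), while 123 genes were higher and 1225 lower at an unadjusted p below 0.05. With the replicate block 1.93% of all genes passed and again none of the 10. LMO2 had the smallest p, with a difference of -0.37 (SE 0.09, unadjusted p = 0.00092, adjusted p = 0.152, or 0.0791 with the block), since it was higher with OGP46 in all 3 NB4 pairs and close to its control in Kasumi-1. For BCL6 the difference was -0.74 (SE 0.33, unadjusted p = 0.0409, adjusted p = 0.436). The median difference over all genes was -0.12.

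**Figure D4:**
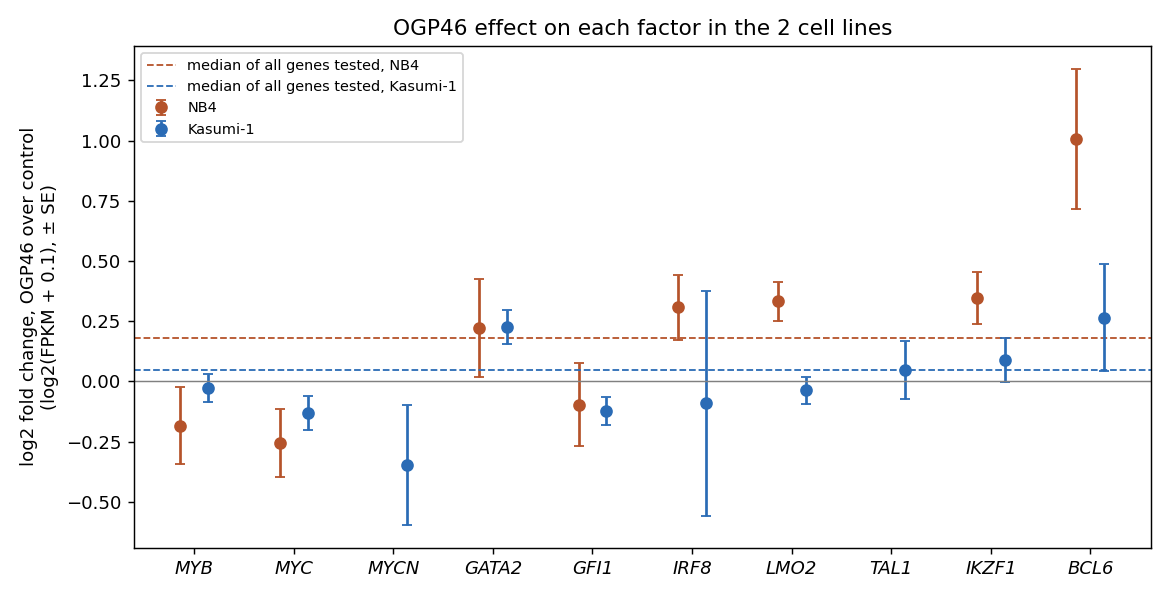
Log2 fold change with OGP46 for each factor (vertical axis, log2(FPKM + 0.1), bars ± SE, n = 3 each) in NB4 (orange-brown) and Kasumi-1 (blue), with dashed lines at the median of all genes tested in that line. BCL6 in NB4 stands at 1.01, and all others lie between -0.35 and 0.35. TAL1 and MYCN have no NB4 point because they were below the minimum level.

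Relatives and partners of the factors were counted next, from lists that had been drawn up with earlier results of these data known. With OGP46, none of the 6 lists of relatives and cofactors had a gene past the threshold in the fit without pairing, in either line. The lists were the MYB family and coactivators (4 tested in NB4), the MYC network (10), the TAL1, GATA2 and LMO2 complex (10), GFI1 relatives and corepressors (5), IRF8 relatives and partners (4), and the Ikaros family with NuRD (6). The 6 tested relatives and corepressors of BCL6 had none past it either. With the block, ZBTB16 in NB4 passed. ZBTB16, a zinc finger relative of BCL6 that is a fusion partner of RARA in rare leukemias, was at 1.30, 1.74 and 1.65 FPKM in the controls and at 0.41, 0.707 and 0.964 FPKM with OGP46 (log2 fold change -1.12, adjusted p = 0.0644, or 0.00112 with the block). SPI1, the ETS partner of IRF8, was at 31.0 ± 0.991 FPKM (SD, n = 3) in the NB4 controls and at 37.6 ± 2.79 FPKM (SD, n = 3) after OGP46 (log2 fold change 0.27, SE 0.08, adjusted p = 0.089). MXD4, a MYC antagonist, was at 4.96, 4.57 and 5.49 FPKM in the NB4 controls and at 8.77, 5.69 and 7.86 FPKM with OGP46. MXD4 was the one gene of these lists whose effect differed between the lines with the block (difference -0.69, SE 0.14, adjusted p = 0.0387).

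In the untreated lines, the 4 genes of the MYB list were all lower in Kasumi-1, 3 of them past the threshold, where 22.7% of all genes were called lower. MYBL2, a relative of MYB that acts in the cell cycle, was at 87.1 ± 8.6 FPKM (SD, n = 3) in NB4 and at 46.8 ± 4.19 FPKM (SD, n = 3) in Kasumi-1. In the MYC network 3 of 9 were past the threshold as higher in Kasumi-1 and 1 as lower, beside 29.7% and 22.7% of all genes. The lower one was MAX, the partner that MYC needs to bind DNA (log2 fold change -0.93, SE 0.08, adjusted p = 7.06e-06). GFI1B, the erythroid relative of GFI1, was listed at 0 in the Kasumi-1 controls and was at 0.305 ± 0.0999 FPKM (SD, n = 3) in NB4, opposite in order to GFI1. IRF4, the closest relative of IRF8, was at or below 0.0662 FPKM in all 12 samples.

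Genes known as targets of 5 of the factors were read beside them. Among 10 MYB target genes in NB4, ANPEP, which codes for the surface antigen CD13, was up-regulated with OGP46 (log2 fold change 0.68, SE 0.11, adjusted p = 0.0335) and 8 lay lower, with a median of -0.56 beside 0.18 for all genes. The call of ANPEP was lost with TPM scaling, median centring or quantile normalization. With the block 4 were down-regulated, ELANE, PRTN3 and AZU1 of the primary granules and CD34 of progenitors, while 1.15% of all genes were called lower. PRTN3 was at 146, 449 and 259 FPKM in the controls and at 44.3, 212 and 106 FPKM with OGP46 (log2 fold change -1.36, adjusted p = 0.155, or 1.39e-05 with the block). The values of ELANE and CD34 were highest in NB4 control 3, at 14.5 and 1.31 FPKM, the sample that carried Kasumi-1 signal. With the block and without that pair, ELANE (-1.60), PRTN3 (-1.40) and AZU1 (-0.69) were again down-regulated, and CD34 was below the minimum level. The median of the 9 genes then tested was -0.34, and KIT lay at 0.19 against -0.64 with all samples. Without NB4 control 3 alone, and no block, the median was -0.04.

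Of 10 GFI1 repressed genes tested in NB4, 2 were up-regulated without the block and 4 with it, and the median was 0.37 beside 0.18 for all genes. Among all genes 1.45% were called higher without the block and 5.06% with it. With TPM scaling, median centring or quantile normalization 0 of the list passed without the block, and with the block 3 passed under TPM scaling or median centring. CDKN1A, which codes for the cell cycle inhibitor p21, was at 1.77, 1.69 and 1.15 FPKM in the controls and at 6.07, 4.34 and 3.02 FPKM with OGP46 (log2 fold change 1.45, SE 0.26, adjusted p = 0.0364). EGR1, an early growth response factor of the monocyte lineage, was at 0.736, 0.995 and 0.950 FPKM and then at 1.53, 2.69 and 3.15 FPKM (log2 fold change 1.31, SE 0.26, adjusted p = 0.0435). In both genes every OGP46 sample was above every control, as in 32.7% of all genes tested in NB4. ID2 and EGR2 passed with the block, and EGR2 did not without pair 3 (adjusted p = 0.0763). In Kasumi-1, EGR1 passed with the block alone (log2 fold change 0.87, adjusted p = 0.065, or 0.0122 with the block). The level of GFI1 itself did not differ with OGP46 past the threshold in either line.

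All 8 IRF8 target genes tested in NB4 lay higher with OGP46, with a median of 0.57 beside 0.18 for all genes, but 0 passed without the block. With it 4 were up-regulated, where 5.06% of all genes were called higher. Among the 4 were TLR9, which codes for a receptor of the innate immune system, and CYBB, for a subunit of the phagocyte oxidase. CSF1R, which codes for the receptor of macrophage colony stimulating factor, was also among them. These folds are of the deposited values, in which the median of all genes was 0.18, against -0.04 with median centring. CYBB was at 46.7, 35.0 and 38.5 FPKM in the controls and at 68.3, 47.9 and 71.7 FPKM with OGP46 (log2 fold change 0.63, adjusted p = 0.0726, or 0.00118 with the block). Without pair 3, TLR9 passed, while CYBB (0.50) and CSF1R (0.55) were under the fold threshold. The monocyte and macrophage markers, which share CSF1R with this list, had a summed level of 11.4 to 13.5 FPKM in NB4 without OGP46 and of 21.8 to 37.7 FPKM with it. Of the 4 tested, 2 passed without the block, among them CD68 (log2 fold change 0.62, SE 0.12, adjusted p = 0.0399). All 4 passed with it, among them CD14, CD68 and CSF1R, while FCGR3A was at 0 in all 12 samples. Among all genes 1.45% were called higher without the block and 5.06% with it. With TPM scaling, median centring or quantile normalization, 0 genes passed in NB4 without the block, so the call of CD68 was lost. The part of the monocyte and macrophage markers in the values of IRF8 and its targets was not tested. Of 7 neutrophil markers, LCN2, CEACAM8 and FCGR3B were at 0 in all 12 samples, LTF and MMP8 stayed below 0.1 FPKM, CAMP was at or below 0.525 FPKM, and CXCR2 was between 0.475 and 1.56 FPKM. Their sum was between 0.686 and 1.18 FPKM in the NB4 controls and between 0.659 and 1.23 FPKM with OGP46. In Kasumi-1, 5 of 8 IRF8 targets were higher and 0 passed in either fit.

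MYC target genes of ribosome assembly lay lower with OGP46 in 32 of 39 cases in NB4 and in 37 of 39 in Kasumi-1, by medians of -0.10 and -0.13 beside 0.18 and 0.05 for all genes, and 0 passed in either line with or without the block. The BCL6 repressed genes had medians of 0.21 in NB4 and 0.01 in Kasumi-1, close to those of all genes, and 0 passed without the block. With it the chemokine gene CXCL10 was down-regulated in NB4. CXCL10 was at 3.53, 0.143 and 4.41 FPKM in the controls and at 1.32, 0.0418 and 3.10 FPKM with OGP46, lowest in replicate 2 of both groups.

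**Figure D5:**
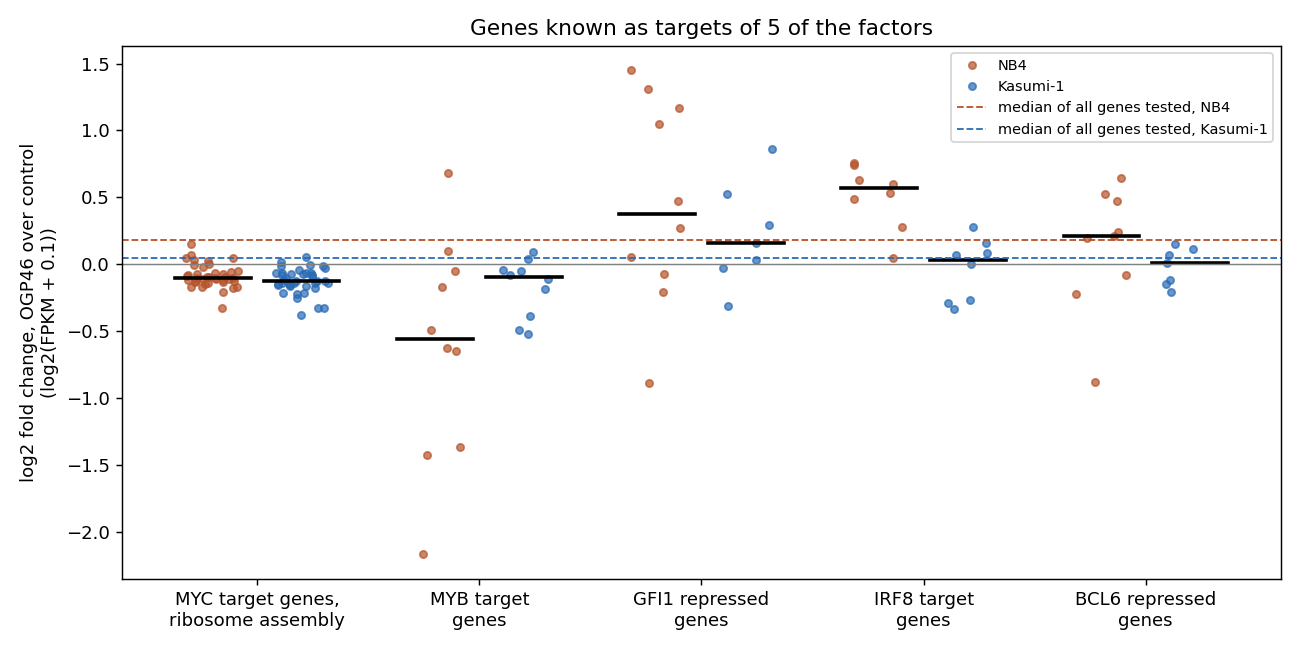
Log2 fold change with OGP46 (vertical axis, log2(FPKM + 0.1)) of each gene of 5 target lists in NB4 (orange-brown) and Kasumi-1 (blue), with a black line at the median of each list and dashed lines at the median of all genes tested. In NB4 the medians run from -0.56 for MYB target genes to 0.57 for IRF8 target genes, and in Kasumi-1 they lie between -0.13 and 0.16.

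The genes whose pattern over the 12 samples was most like that of a factor were picked by the Pearson r of log2(FPKM + 0.1) among 9942 genes. These r rest largely on the difference between the lines, which all samples share, and are given as a description. For TAL1 they were SCARF1 (r = 0.998), PRRT3 and CASKIN2, for LMO2 NDFIP1 (r = 0.997), HK1 and RCBTB1, and for GFI1 CGREF1 (r = 0.997), BOP1 and MEST. For IRF8 they were PJA1 (r = 0.994), ITGB2 and MTFR2, and for IKZF1 SMAD3 (r = 0.996), PTPN9 and PDPK1. For MYC they were INTS10 (r = 0.985), MRPS27 and RAC3, and for MYB PPT2 (r = 0.969), NLN and DIS3L. GATA2, the factor least different between the lines among these, was most like RSL24D1 (r = 0.949), BRD3 and SIAH1.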

How the data were processed

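Libraries of poly(A) mRNA were made with a stranded kit. The authors deposited FPKM, 1 value per gene symbol and sample, without counts. The submitters' processing notes name Trimmomatic, HISAT2, Cufflinks, HTSeq and hg38, with no versions or roles, and whether strand was used in counting is not given in the sources used here. GATA2, MYCN and BCL6 overlap antisense genes, so their values are uncertain where strand was not used. In each sample 27 symbols turned into dates were left out.

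The members and lists were chosen with earlier results of these data known. The 10 factors were all named. Of each list, up to 4 genes per direction with the largest change among those that passed were named, with any relative or antagonist of a factor, and SPI1 and the marker genes were named after their values were seen. Groups came from the sample labels. limma version 3.58.1 in R version 4.3.3 was fitted to log2(FPKM + 0.1) of the samples of each comparison, leaving out genes whose mean was under 0.1 FPKM, with a mean-variance trend and Benjamini-Hochberg adjustment over all genes tested. A fold on this scale understates the change of low genes. The threshold was a fold of 0.58 on the log2 scale, in either direction, with an adjusted p under 0.05, and no minimum fold for the difference between lines. The scripts were tested on simulated data.

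The replicate number was checked as a pairing. Deviations from the group mean were correlated between control and OGP46 samples of a line. Across genes of at least 5 FPKM, same-numbered samples had r = 0.66, 0.85 and 0.44 in NB4 and r = 0.42, 0.43 and 0.62 in Kasumi-1. Across all genes tested their r was between 0.16 and 0.62, all over the set minimum of 0.1. At 5 FPKM, samples of different numbers had r from -0.69 to 0.29 in NB4 and from -0.44 to 0.08 in Kasumi-1. Some of these were also over 0.1, so that minimum alone does not single out the pairs. For each control the highest r was with the OGP46 sample of its number. Across all genes, however, OGP46 3 of NB4 was closer to control 1 (r = 0.22) than to control 3 (r = 0.20). Controls of the different lines shared only a number (r between -0.01 and 0.04). Alternatives were pseudocounts of 1 and 0.01, no filter, only genes with a mean of 1 FPKM or more, scaling to TPM, centring on the median, quantile normalization, the replicate block alone or with median centring or TPM scaling, moderation without a trend, one fit of all 12 samples, and leaving out each sample. Leaving out both control samples with signal of the other line, or their pairs with the block, was chosen after seeing the data. Start site sequences came from RefSeq (GRCh38.p14). Results for some genes of the lists are not reported here.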

Additional observations from a re-analysis of the deposited data

How the results depend on the processing

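The count of all genes past the threshold depended on the settings more than the values of the factors did. In NB4, 183 genes passed, against 117 with a pseudocount of 1, 4 with no filter, 4 without a trend, 0 with TPM scaling, median centring or quantile normalization, and 498 in one fit of all 12 samples. With the replicate block there were 730, or 391 with median centring, 452 with TPM scaling and 658 without pair 3. Of these blocked calls 595 were higher and 135 lower as deposited, but 188 higher and 203 lower with median centring and 310 higher and 142 lower with TPM scaling. Leaving out 1 sample gave 0 to 396, the highest without OGP46 replicate 2. Of the 8 factors in NB4, 1 passed (BCL6) with the block, the block with TPM scaling, the block without pair 3 and one fit of all 12 samples, and 0 under every other setting.

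In Kasumi-1, 4 genes passed, against 2 with a pseudocount of 1, 24 at a minimum mean of 1 FPKM, 18 with TPM scaling or median centring, 11 with quantile normalization, 0 with no filter or without a trend, 1 in one fit of all 12 samples, and 73 with the block, 93 and 98 with the block and median centring or TPM scaling, and 112 with the block without pair 2. Leaving out 1 sample gave 0 to 11. For the difference of the effect between the lines, 0 genes became 14 with a pseudocount of 1, 237 with the block, 144 and 129 with the block and median centring or TPM scaling, 1 without both control samples that carried signal of the other line, and 0 to 1 without single samples.

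Small changes of single factors turned their direction, none of them called. Log2 fold changes were -4e-04 for GATA2 in NB4 with median centring, with or without the block, -0.0192 for TAL1 in Kasumi-1 with median centring, with or without the block, -0.0233 for it with quantile normalization, 0.0181 for MYB in Kasumi-1 with the block without pair 2, and -0.0275 for GATA2 between the lines with TPM scaling, with or without the block. For the difference of the effect, GFI1 was at 0.12 with TPM scaling and with median centring, each with or without the block, 0.16 with quantile normalization and 0.046 without both control samples. TAL1 was at 0.0124 with a pseudocount of 1 and 0.0659 with median centring, with or without the block, and GATA2 at -0.12 without both control samples. Leaving out 1 sample gave ranges of -0.35 to 0.002 for MYB and -0.27 to 0.0558 for GFI1 in NB4, and of -0.0578 to 0.0136 for MYB, -0.51 to 0.42 for IRF8 and -0.0262 to 0.17 for TAL1 in Kasumi-1. For the difference it gave -0.028 to 0.33 for MYB, -0.0564 to 0.23 for MYC, -0.13 to 0.22 for GATA2, -0.18 to 0.14 for GFI1, -0.82 to 0.11 for IRF8 and -0.17 to 0.0632 for TAL1. The cause was not tested. The factors called between the lines kept their side under every setting. Only MYC fell under the fold threshold, with TPM scaling or median centring, with or without the block. Depth is unknown, and BCL6, TAL1 and MYCN rest on low values.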
